A study of Mus musculus with 32 samples.

Results

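Mitochondrially encoded transcripts were followed through single-cell RNA sequencing of microglia and astrocytes from aged mice. The 9 genes described are mt-Co1, mt-Cytb, mt-Nd1, mt-Nd2, mt-Nd4, mt-Nd5, mt-Nd6, mt-Rnr1 and mt-Rnr2, of 55341 genes in the count tables and of 37 genes of the mitochondrial genome. They were chosen by their UMI counts, as genes that led a microglial sub-cluster in an earlier analysis of the same data, so that their joint rise in some microglia is how they were picked and not a result. No other measure chose them, and their levels by library, cell type, brain region, genotype and treatment are given below as measured.

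The data came from 16 female mice aged 15 months, each with 1 library from the cortex and 1 from the hippocampus, 32 libraries in all. The labels give 5 wild-type mice on vehicle (WT-vehicle), 3 wild-type mice on PMX205 (WT-PMX205), 4 APP mice on vehicle (APP-vehicle) and 4 APP mice on PMX205 (APP-PMX205). PMX205 antagonises C5aR1, the receptor for the complement fragment C5a, and was given in drinking water at about 2 to 8 mg/kg/day for 12 weeks, and vehicle was the water alone. The study's methods call the APP line Tg2576, a hemizygous transgene for human APP with the Swedish mutation under a prion promoter, whereas the strain labels say Arctic. The strain field further gives a knockout of C5ar1 for 5 mice and overexpressed C5a for 5 others, alleles absent from the study's methods, and 2 mice (WT-vehicle mouse 4 and APP-vehicle mouse 3) carry a strain label at odds with their genotype label. The knockout label is on 2 WT-vehicle, 1 WT-PMX205, 1 APP-vehicle and 1 APP-PMX205 mice, and the C5a label on 2, 0, 2 and 1. Of the vehicle mice, only WT-vehicle mouse 1 and APP-vehicle mouse 1 are labelled with neither allele. C5ar1 UMIs were found in the microglia of 4 of the 5 mice labelled as knockout and of 5 of the 6 mice with neither allele, and whether the counted end of the gene lies in the deleted part is not given. Groups here follow the genotype label and the treatment in the title. Cells of one side of the brain were dissociated with inhibitors of transcription and translation, and microglia and astrocytes were captured on CD11b and ACSA-2 beads.

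The mitochondrial genome of mammals encodes a set of protein subunits of the respiratory chain, both rRNAs of the mitochondrial ribosome and a set of tRNAs. Both strands are transcribed as long precursors that are cut at the tRNAs, most of the genes are read from the heavy strand, and mt-Nd6 is the only protein gene read from the light strand. The remaining subunits of the chain are made in the cytosol from nuclear genes, so each complex other than complex II joins products of both genomes. In single-cell work the share of mitochondrial transcripts in a cell is also used as a measure of cell quality, and cells above a limit are often removed, as the study did at 5%.

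By role, mt-Nd1, mt-Nd2, mt-Nd4, mt-Nd5 and mt-Nd6 encode subunits of complex I, the NADH dehydrogenase. The gene mt-Cytb encodes cytochrome b of complex III, mt-Co1 encodes the catalytic subunit of cytochrome c oxidase, and mt-Rnr1 and mt-Rnr2 are the small and large ribosomal RNAs. On mm10 the complex I genes lie at chrM:2751-3707 (mt-Nd1), chrM:3914-4951 (mt-Nd2), chrM:10167-11544 (mt-Nd4), chrM:11742-13565 (mt-Nd5) and, on the opposite strand, chrM:13552-14070 (mt-Nd6). The others lie at chrM:14145-15288 (mt-Cytb), chrM:5328-6872 (mt-Co1), chrM:70-1024 (mt-Rnr1) and chrM:1094-2675 (mt-Rnr2). All are single exons without introns, and mt-Nd5 and mt-Nd6 overlap on opposite strands at chrM:13552-13565, where reads cannot be assigned without strand.

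Pieces of mitochondrial DNA copied into the nuclear genome bear on which of these genes can be counted, since a read that fits both cannot be placed. The 60 bases before the last 4 of mt-Co1 and of mt-Co2, the latter not among the 9 genes, are shown with their nuclear copies because both pairs are identical there, and those of mt-Cytb and mt-Nd6 because their copies differ. Gene sequences are as the mm10 transcript annotation gives them, 5′ to 3′, and capitals mark the bases at which a nuclear copy differs from the mitochondrial gene.
mt-Co1 (chrM:6809-6868, plus strand): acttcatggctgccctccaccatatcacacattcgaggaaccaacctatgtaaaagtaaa
Gm29216 (chr1:24615710-24615769, minus strand): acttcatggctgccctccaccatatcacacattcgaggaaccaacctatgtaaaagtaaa
mt-Co2 (chrM:7633-7692, plus strand): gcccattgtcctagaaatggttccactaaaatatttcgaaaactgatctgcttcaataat
Gm28661 (chr1:24614886-24614945, minus strand): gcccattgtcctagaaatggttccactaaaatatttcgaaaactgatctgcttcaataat
mt-Cytb (chrM:15225-15284, plus strand): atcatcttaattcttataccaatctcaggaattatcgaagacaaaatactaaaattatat
Gm11410 (chr4:80005069-80005128, plus strand): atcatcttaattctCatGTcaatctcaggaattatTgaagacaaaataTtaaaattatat
mt-Nd6 (chrM:13556-13615, minus strand): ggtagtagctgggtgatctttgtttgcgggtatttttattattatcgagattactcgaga
Gm11408 (chr4:80003400-80003459, minus strand): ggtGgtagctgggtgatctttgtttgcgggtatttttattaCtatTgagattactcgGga

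The pairs of mt-Co1 and mt-Co2 had 0 mismatches, the mt-Cytb pair had 5 and the mt-Nd6 pair had 4. Over whole genes, the share of 31-base words found in no other annotated gene was 100% for mt-Rnr1 and mt-Nd1, 97.3% for mt-Rnr2, 93.4% for mt-Cytb, 92.6% for mt-Nd6, 86.5% for mt-Nd2 and 83.2% for mt-Nd5. It was 37.2% for mt-Nd4, although the 300 words nearest its 3′ end were all found in no other gene. It was 36.1% for mt-Co1, and none of the 300 words at its 3′ end was found in that gene alone. At the 3′ end of mt-Nd2 188 of 300 words (62.7%) were found in no other gene, and in the other 6 of the 9 the share there was 89.3% or more. For the other mitochondrial protein genes the share was 92.5% in mt-Atp8 and between 0% (mt-Co2) and 1.89% (mt-Nd3) in the rest. UMIs over all barcodes numbered 2087 for mt-Co3, 1484 for mt-Atp6, 313 for mt-Co2, 98 for mt-Nd3 and 31 for mt-Nd4l, and the 8 nuclear copies on the gene list, among them Gm29216 and Gm28661, had 0 UMIs in any barcode. Of 7 further genes that share 31-base words with mitochondrial genes, Gm11410 had 1 UMI, Gm20594 had 2, Cep295, a protein gene that shares only 4 words with mt-Ty, had 176, and the other 4, Gm11408 among them, had 0. The 9 genes held 108473 UMIs, 95.0% of the mitochondrial UMIs. The stated options of the counting tool set no treatment of reads that fit several genes, so the level of mt-Co1, and less so those of mt-Nd2, by its 3′ end, and mt-Nd4, by its whole length, are uncertain in relation to the other genes.

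**Figure D1:**
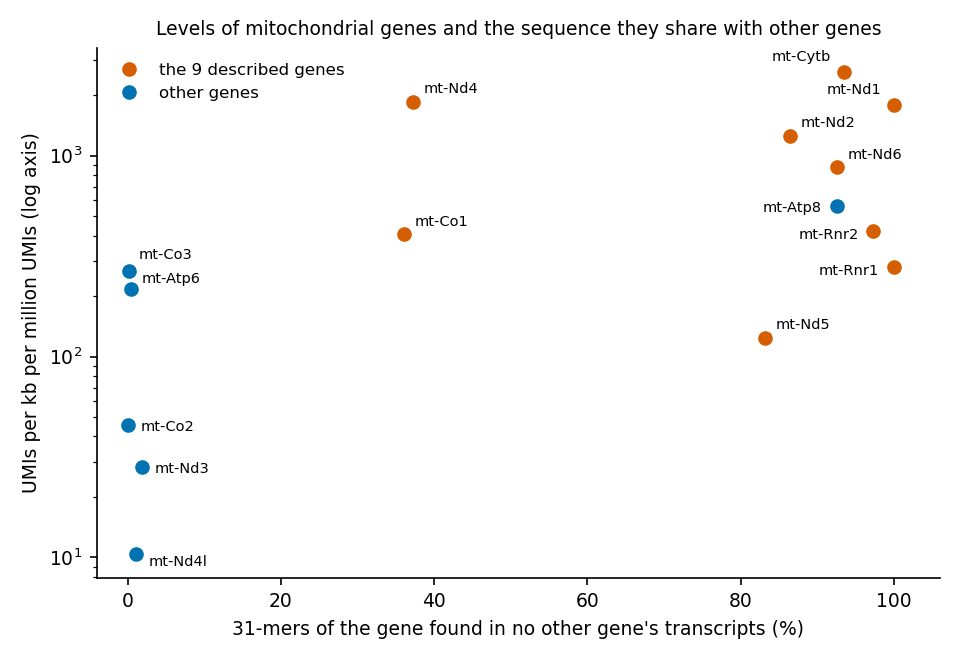
Each point is one of 15 protein and ribosomal genes of the mitochondrial genome, plotted by the percentage of its 31-base words found in no other annotated gene (x axis) against its CPM per kb over all barcodes (y axis, log scale). Of the genes near 0% on the x axis, mt-Co2, mt-Nd3 and mt-Nd4l lie below all 9 described genes, while mt-Co3 at 266 and mt-Atp6 at 217 lie above mt-Nd5 at 124 and below the other 8. Of the 9, 7 lie above 80% on the x axis, with mt-Co1 and mt-Nd4 at 36.1% and 37.2%.

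The 32 libraries held 13917 barcodes with 10017205 UMIs, from 37205 to 1072049 UMIs per library with a median of 207120. Barcodes with at least 500 UMIs and 300 genes numbered 6075, from 17 to 814 per library, at a median of 899 UMIs. Of these, 2210 were called microglia and 1434 astrocytes from marker genes that included no mitochondrial gene, and 1681 met no marker rule. Of 12874 barcode sequences 289 occurred in more than 1 library, and 543 passing barcodes belonged to one family of sequences, made largely of linker bases, that recurred across libraries and had 1.56% of its UMIs from the 9 genes. A further 1135 passing barcodes had a partner in the same library that differed only in the first base, at 0.486% against 1.0% in the other passing barcodes. Such pairs made up 40.7 to 65.9% of the passing barcodes of WT-vehicle mouse 5, APP-vehicle mouse 4 and APP-PMX205 mice 2 and 3, and 0 to 5.34% of those of the other 12 mice.

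Per kilobase of transcript, mt-Cytb had the most UMIs of the 9 genes in microglia, with a median of 1736 CPM per kb (UMIs per 1000000 UMIs of the same cells, per kilobase) over the 22 libraries that had at least 20 microglia. It was followed by mt-Nd1 at 1324, mt-Nd4 at 1129, mt-Nd2 at 775 and mt-Nd6 at 492 CPM per kb. Lower on the same scale were mt-Co1 at 231, mt-Rnr2 at 214, mt-Rnr1 at 116 and mt-Nd5 at 77.7. In the 19 libraries with at least 20 astrocytes, mt-Cytb was again first at 1905 and mt-Nd5 last at 77.7 CPM per kb, with mt-Nd4 at 1413 above mt-Nd1 at 1168. Both rRNAs were thus among the lower genes in UMIs per length. How well the kit captures each RNA was not measured, so this order is of counted UMIs and need not be that of RNA in the cell. Since the kit counts 3′ ends, UMIs need not grow with length, and undivided CPM give another order, with mt-Nd4 at a median of 1556 CPM above mt-Nd1 at 1267, and mt-Nd6 at 255 below mt-Co1 at 357 and mt-Rnr2 at 339 CPM in microglia.

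The genes did not vary alike. In CPM of a library's microglia, mt-Co1 ran from 39.98 to 2070 with a median of 357, a ratio of 51.8 between the highest and lowest library, whereas mt-Nd4 ran from 832 to 4813 with a ratio of 5.78. The lowest mt-Co1 value rested on 2 UMIs and the highest mt-Rnr1 value of 706 CPM was 32.5 times the lowest, which rested on 1 UMI, so both ratios rest on few UMIs at their lower end. Across the 22 libraries, Spearman's rho of each gene with the other 8 summed ran from 0.65 for mt-Rnr2 to 0.957 for mt-Nd1, as a description over libraries that share a depth for all genes. Of the UMIs of the 9 genes in a library's microglia, mt-Cytb made up 21.2 to 38.6% and mt-Nd4 16.5 to 34.9%.

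The main difference lay between mice. Together the 9 genes made up 0.298 to 2.65% of the UMIs of microglia over 22 libraries, with a median of 0.695%, and 0.310 to 2.49% of those of astrocytes over 19 libraries, with a median of 0.689%. In APP-vehicle mouse 1 the share was 2.22% in cortex microglia (252 cells, 95% Wilson interval 2.16 to 2.28%), 2.65% in hippocampus microglia (86 cells), 1.91% in cortex astrocytes (42 cells) and 2.49% in hippocampus astrocytes (34 cells). In WT-vehicle mouse 1 it was 1.54%, 1.42%, 1.61% and 1.85% in the same order. Every other library with at least 20 cells of the type had at most 1.0%, the value of cortex astrocytes of WT-vehicle mouse 3. Both high mice are the only vehicle mice labelled with neither the C5ar1 knockout nor overexpressed C5a, so that mouse and labelled allele cannot be told apart among vehicle mice. WT-PMX205 mice 1 and 2 and APP-PMX205 mice 2 and 3 also have neither label. The intervals cover counting error only, since molecules of one library share its preparation.

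**Figure D2:**
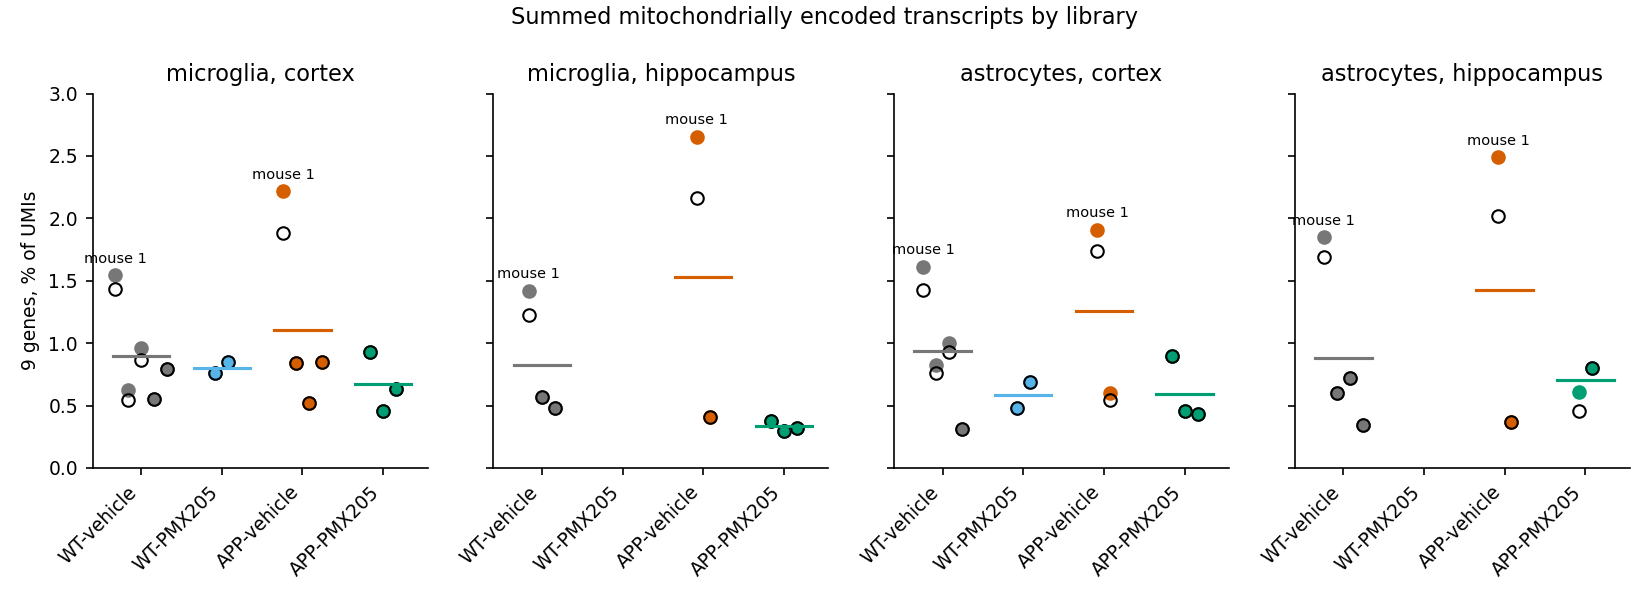
Percentage of UMIs from the 9 genes (y axis, from 0) in the microglia and astrocytes of each library with at least 20 such cells, by brain region and group (x axis). Filled points are without a mitochondrial limit, open points with the 5% limit, and bars are group means; APP-vehicle mouse 1 and WT-vehicle mouse 1 lie above the other libraries of each panel with and without the limit.

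Both cell types and both regions of these mice carried the difference. In the 18 libraries with at least 20 cells of both types, the 4 libraries of APP-vehicle mouse 1 and WT-vehicle mouse 1 held ranks 1 to 4 in microglia and ranks 1 to 4 in astrocytes. All 9 genes had their highest microglial level in APP-vehicle mouse 1 in both regions, and so did 8 of 9 in cortex astrocytes and 9 of 9 in hippocampus astrocytes. The 9 were chosen for a joint rise in some microglia of these data, so that their moving together in microglia is not a separate result. For mt-Rnr2, cortex microglia of APP-vehicle mouse 1 had 1827 CPM against 293 to 367 CPM in the other APP-vehicle mice, and for mt-Nd4 4661 against 1260 to 1628 CPM. WT-vehicle mouse 1 stood apart within its own group for mt-Nd6, with 820 CPM in cortex microglia against 179 to 354 CPM in the other 4 WT-vehicle mice.

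Libraries with fewer cells were not all low. Among those with under 20 cells of the type, hippocampus microglia reached 1.69% in WT-vehicle mouse 5 (6 cells, Wilson interval 1.33 to 2.13%) and 1.44% in APP-vehicle mouse 4 (12 cells, 1.25 to 1.66%). In the first of these 4 of the 6 cells belonged to the recurring barcode family and the share without them was 1.08%, and in the second 5 of 12 did and the share without them was 0.850%. The 3 hippocampus astrocytes of APP-vehicle mouse 4 were at 2.04%. These libraries entered no test. In the libraries of APP-vehicle mouse 1 the family was 9 of 252 microglia in the cortex and 3 of 86 in the hippocampus, and the shares without it were 2.20% and 2.60%.

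**Figure D3:**
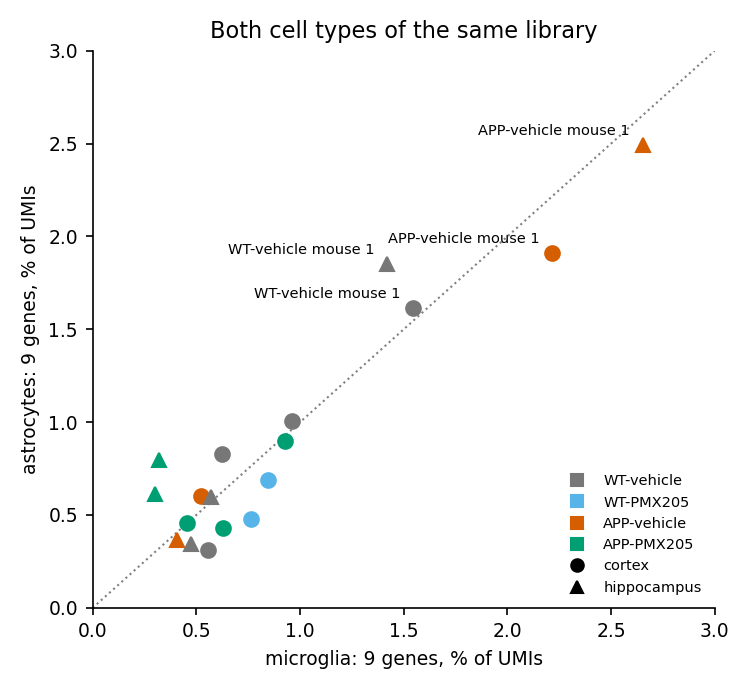
Percentage of UMIs from the 9 genes in the astrocytes of a library plotted against that in its microglia, 1 point for each of 18 libraries with at least 20 cells of both types, and the dotted line marks equal shares. The 4 libraries of APP-vehicle mouse 1 and WT-vehicle mouse 1 lie between 1.42 and 2.65% on both axes and all others at or below 1.0%.

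The 5% limit changed the height of these libraries but not their place. All genes of the mitochondrial genome together exceeded 5% in 110 of the 6075 passing barcodes, 61 of them from APP-vehicle mouse 1 (9.26% of its barcodes) and 31 from WT-vehicle mouse 1 (3.60%), while the other 14 mice had between 0 and 5 each. By type the share above 5% was 2.26% of microglia (50 cells, 1.72 to 2.97%) and 1.60% of astrocytes (23 cells, 1.07 to 2.40%), 1 of 285 endothelial cells, and 0 of 294 mural and 0 of 95 ependymal cells, where the Wilson interval reaches 1.29% and 3.89%. APP-vehicle mouse 1 gave 34 of these microglia and 7 of these astrocytes, and WT-vehicle mouse 1 gave 13 and 9. The shares by type thus depend on which mice gave the cells. These intervals pool cells over mice and leave out the spread between mice, so they do not compare the types. With the limit, APP-vehicle mouse 1 came to 1.88% and 2.16% in microglia of the cortex and hippocampus, and 1.74% and 2.02% in astrocytes. WT-vehicle mouse 1 came to 1.44%, 1.23%, 1.43% and 1.69%. In hippocampus microglia of APP-vehicle mouse 1 the level of mt-Cytb, for example, went from 7072 to 5683 CPM.

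Shallow cells had higher shares in the series as a whole. Microglia with 500 to 700 UMIs had 1.30% of UMIs from the 9 genes and those with at least 2500 UMIs 0.747%, and astrocytes went from 1.29% to 0.442%. Within APP-vehicle mouse 1 the microglial share lay between 2.11 and 2.70% in every band of depth, and among its microglia with at least 2500 UMIs (19 cells) it was 2.41%. Astrocytes of that mouse fell from 2.96% at 500 to 700 UMIs to 1.04% above 2500 UMIs, the latter over 3 cells. In WT-vehicle mouse 1 deep cells had lower shares in both types, with microglia at 1.65% at 500 to 700 UMIs, 2.07% at 700 to 1000 UMIs and 1.08% above 2500 UMIs (20 cells), and astrocytes at 2.04%, 2.22% and 0.765% (14 cells) in the same bands. With a minimum of 1000 UMIs, cortex microglia of APP-vehicle mouse 1 were at 2.17% and those of the other 3 APP-vehicle mice at 0.429 to 0.844%.

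Other measures moved with these mice. Summed markers of microglia in cortex astrocytes were 13309 CPM in APP-vehicle mouse 1 and 12798 CPM in WT-vehicle mouse 1 against 3857 to 9308 CPM in the other 9 libraries, while astrocyte markers in cortex microglia, at 2998 and 4580 CPM, lay within the other libraries' 1107 to 6011 CPM. The 28 further genes of the mitochondrial genome stood at 1012 and 824 CPM in cortex microglia of these mice against 185 to 799 CPM, and at 1265 and 573 against 133 to 425 CPM in the hippocampus. The nuclear-encoded subunits of the respiratory chain, summed over 75 genes, were at 8530 and 8547 CPM in cortex microglia against 6500 to 8145 CPM, and in cortex astrocytes at 12802 and 15005 CPM within the other libraries' 12727 to 17387 CPM. In hippocampus microglia these subunits were at 8977 and 8086 CPM, within 7237 to 9256 CPM. In hippocampus astrocytes they were at 12872 and 18149 CPM, the first below the other libraries' 16305 to 19341 CPM. Genes induced by dissociation, at 128 and 109 CPM in cortex microglia, lay within the 68.7 to 240 CPM of the rest. The nuclear RNAs Malat1 and Neat1, summed, were at 551 CPM in cortex microglia of both mice, within 226 to 833 CPM. In hippocampus microglia they were at 419 and 406 against 87.1 to 358 CPM. In astrocytes they were at 1382 and 600 against 441 to 910 CPM in the cortex, and at 866 and 1053 against 394 to 873 CPM in the hippocampus. The marker lists of types other than microglia and astrocytes were each at most 333 CPM in cortex microglia of either mouse. In hippocampus microglia endothelial markers were at 263 and 299 CPM against 23.6 to 227 CPM in the other libraries. Ependymal markers there were at 57.5 and 71.7 against 0 to 23.6 CPM. Astrocyte markers, at 2004 and 1601 CPM, and dissociation genes, at 115 and 107 CPM, lay within the other libraries' ranges there. The part of depth and of other cells' RNA in these shares was not tested.

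In cortex microglia the mean share was 0.896 ± 0.395% (SD, n = 5) in WT-vehicle, 0.804 ± 0.0598% (n = 2) in WT-PMX205, 1.11 ± 0.754% (n = 4) in APP-vehicle and 0.672 ± 0.239% (n = 3) in APP-PMX205. In hippocampus microglia it was 0.822 ± 0.519% (n = 3) in WT-vehicle, 1.53 ± 1.59% (n = 2) in APP-vehicle and 0.333 ± 0.0409% (n = 3) in APP-PMX205. The groups overlapped in cortex microglia, and in hippocampus microglia all 3 APP-PMX205 libraries (0.298 to 0.378%) lay below the lower APP-vehicle library at 0.408%. The lower 2 of these 3 are of mice 2 and 3, where 37 of 67 and 24 of 47 microglia were in first-base pairs, against 2 of 41 in APP-PMX205 mouse 1 and 0 in both APP-vehicle libraries. In cortex astrocytes the means were 0.938 ± 0.538% (n = 4), 0.585 ± 0.147% (n = 2), 1.25 ± 0.925% (n = 2) and 0.595 ± 0.265% (n = 3) in the same order of groups. In hippocampus astrocytes they were 0.878 ± 0.667% (n = 4) in WT-vehicle, 1.43 ± 1.5% (n = 2) in APP-vehicle and 0.705 ± 0.132% (n = 2) in APP-PMX205, and both APP-PMX205 libraries (0.611 and 0.798%) lay above the lower APP-vehicle library at 0.366%. Both are of mice 2 and 3, with 15 of 24 and 11 of 44 astrocytes in first-base pairs, and neither APP-vehicle library has any, so that treatment and these pairs cannot be told apart there. Mice with and without many first-base pairs can be set side by side in cortex microglia, where with pairs APP-vehicle mouse 4 was at 0.852% and APP-PMX205 mice 2 and 3 at 0.457% and 0.629%, and without them APP-vehicle mice 1 to 3 were at 2.22%, 0.842% and 0.524% and APP-PMX205 mouse 1 at 0.930%. These shares are of all UMIs, so that more mitochondrial RNA and less nuclear RNA in a cell cannot be told apart.

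To ask whether genotype was accompanied by a change in single genes, UMIs were summed per library and cell type and tested by edgeR's quasi-likelihood test over all genes, with Benjamini-Hochberg adjustment. Separate mice are the replicates of the group comparisons. Between APP-vehicle and WT-vehicle cortex microglia, 0 of 9 genes passed an adjusted p of 0.05 against 0.122% of all genes tested, 0 had an unadjusted p below 0.05, and 0 passed by DESeq2. All 9 were higher in APP-vehicle, by a median of 0.31 on the log2 scale and at most 0.98 ± 0.49 (SE) for mt-Rnr1, beside a median of -0.02 for all 3268 genes. In hippocampus microglia 0 of 9 passed (background 0.0408%, 4 with an unadjusted p below 0.05, 0 by DESeq2), again with all 9 higher and a median of 1.19. In cortex astrocytes 0 passed (background 0.0692%, 2 unadjusted, 0 by DESeq2) at a median of 0.40, and in hippocampus astrocytes 0 passed (background 0.0%, 2 unadjusted, 0 by DESeq2) at a median of 0.97.

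The direction changed in all 4 when 1 mouse was left out. Without APP-vehicle mouse 1, the median log2 difference between APP-vehicle and WT-vehicle became -0.29 in cortex microglia with 1 of 9 genes higher, -0.99 in hippocampus microglia with 0 of 9 higher, -0.54 in cortex astrocytes with 1 of 9 higher and -1.09 in hippocampus astrocytes with 2 of 9 higher. In cortex microglia 3 APP-vehicle mice remained, but in the other 3 comparisons the only APP-vehicle library left was that of mouse 3, whose strain label is at odds with its genotype label, so that the level of mouse 1 was set against 1 mouse alone. Without APP-vehicle mouse 3, which left mouse 1 as the only APP-vehicle library of the same 3 comparisons, 8 genes passed in hippocampus microglia (0.728% of all genes in that fit) and 3 in hippocampus astrocytes (0.320%). With a lone library, its spread is taken to be that of the other groups. Without WT-vehicle mouse 1 the medians were 0.87, 1.93, 0.92 and 1.67 in the same order, the last over the 8 genes tested, and 0 genes passed.

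PMX205 in APP mice was read against the same APP-vehicle libraries, so these differences share them with the genotype comparisons. In cortex microglia 0 of 9 genes passed (background 0.0%, 5 unadjusted, 0 by DESeq2), all 9 were lower in APP-PMX205 and the median was -0.81. The steepest, mt-Nd5, was -2.17 ± 0.50 (SE) at an adjusted p of 0.194 by edgeR. In hippocampus microglia 0 passed (background 0.0%, 9 unadjusted, 0 by DESeq2), with a median of -2.40 and a lowest adjusted p of 0.0846 by edgeR, shared by mt-Nd1 (-2.40), mt-Nd2 (-2.35) and mt-Cytb (-2.44). There 8 of the 9 passed with a minimum of 1000 UMIs per cell (0.345% of all genes) and 8 with no filter on low counts (0.101%), while the median without APP-vehicle mouse 1 was -0.36 with 0 past the threshold. In hippocampus astrocytes 0 passed (background 0.0%, 3 unadjusted, 0 by DESeq2) at a median of -1.07.

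In cortex astrocytes mt-Co1 was the single gene of 4333 that passed between APP-PMX205 and APP-vehicle (background 0.0231%). Its level was 372, 210 and 162 CPM in the 3 APP-PMX205 libraries and 2164 and 267 CPM in the 2 APP-vehicle libraries, the first of these from mouse 1. The lower APP-vehicle value is within the range of the APP-PMX205 libraries. The log2 difference was -2.32 ± 0.48 (SE) at an adjusted p of 0.0492 by edgeR, and DESeq2 called 0 of 9. Without APP-vehicle mouse 1 it was -0.29 at an adjusted p of 1.0, and with the 5% limit none of the 9 passed, with mt-Co1 at -2.12 and an adjusted p of 0.181, the lowest of any. With the 4 mice of many first-base pairs as a batch it was -1.63 (adjusted p = 0.575), and with both regions of a mouse summed -2.07 (0.919). Cleaned barcode classes, Scrublet doublets left out and all deposited barcodes gave -2.32 to -2.18 at adjusted p of 0.0572 to 0.0766. The call was also lost without APP-PMX205 mouse 2 or 3 or WT-vehicle mouse 1, 2, 3 or 4, at -2.34 to -2.08.

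Over the 4 tissues and cell types, leaving out APP-vehicle mouse 1 moved the median log2 difference between APP-PMX205 and APP-vehicle to -0.29 and -0.36 in microglia of the cortex and hippocampus and to -0.13 and 1.06 in astrocytes. Without APP-vehicle mouse 3 the genes that passed numbered 1 in cortex microglia (0.0374% of all genes in that fit), 9 in hippocampus microglia (0.546%), 4 in cortex astrocytes (0.0901%) and 5 in hippocampus astrocytes (1.09%). In all but cortex microglia these fits again hold 1 APP-vehicle library, mouse 3 or mouse 1. Leaving out WT-vehicle mouse 1, which is in the fit but not in the contrast, let 4 genes pass in hippocampus microglia (0.184% of all genes). All 9 genes were lower in APP-PMX205 with every mouse in the fit and with the 5% limit in these 4 comparisons.

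**Figure D4:**
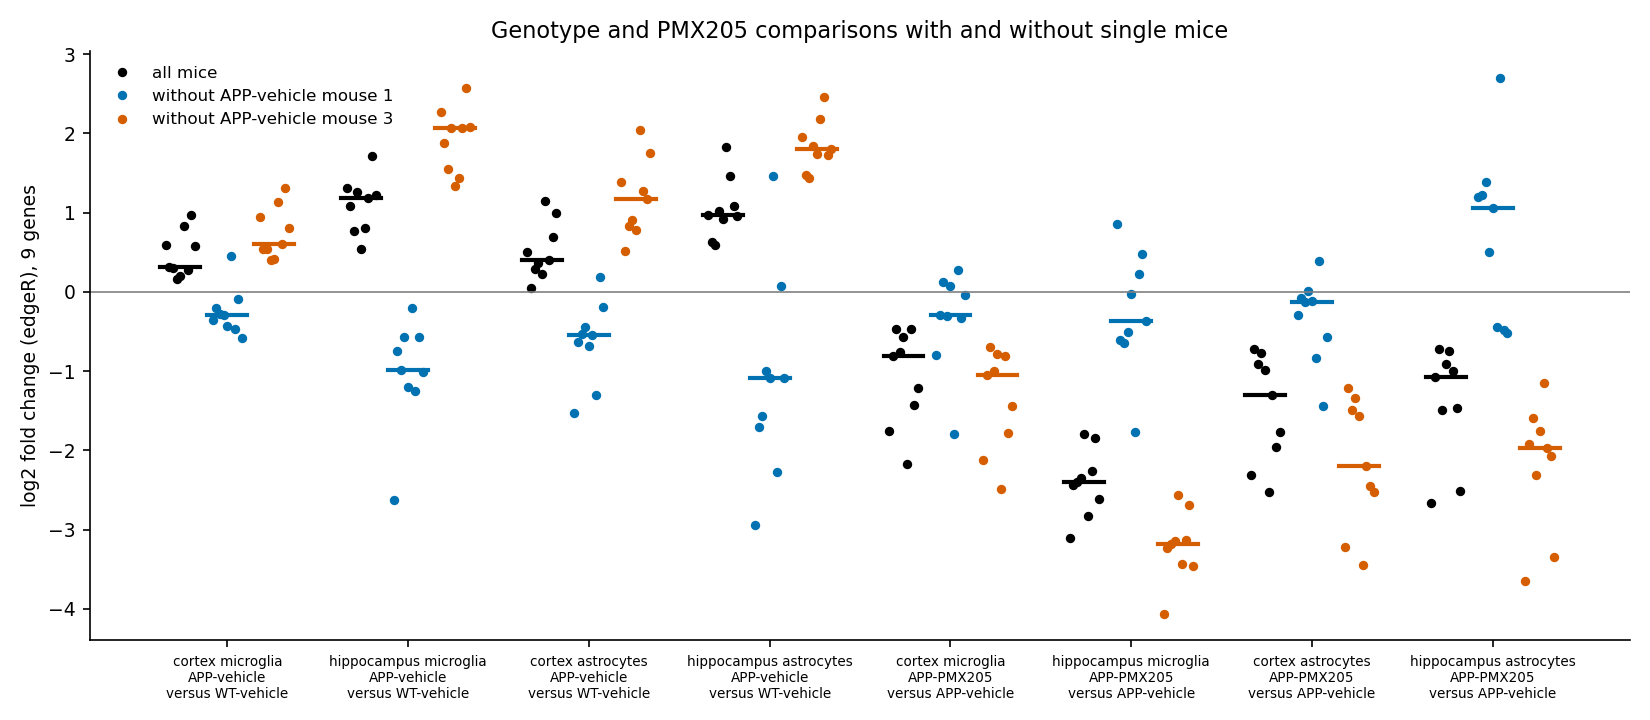
Log2 differences (y axis) of the 9 genes in the 8 comparisons of APP-vehicle with WT-vehicle and of APP-PMX205 with APP-vehicle, by cell type and region (x axis), fitted with all mice, without APP-vehicle mouse 1 and without APP-vehicle mouse 3; each point is a gene and each bar the median of the 9. With all mice the points of a comparison lie on one side of 0, and without APP-vehicle mouse 1 each median lies nearer to 0 or on its other side, as far as -1.09 and 1.06 in hippocampus astrocytes.

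In wild-type mice PMX205 was compared in the cortex only, as the hippocampus had no WT-PMX205 library with 20 cells of either type. In cortex microglia 0 of 9 genes passed (background 0.0%, 0 unadjusted, 0 by DESeq2), with 8 of 9 lower and a median of -0.48 beside -0.10 for all genes. In cortex astrocytes 0 passed (background 0.0231%, 5 unadjusted, 0 by DESeq2), with 9 of 9 lower and a median of -0.87 beside -0.19 for all genes. Without WT-vehicle mouse 1 these medians were -0.07 and -0.34. The difference between the PMX205 effect in APP and in wild-type mice had 0 genes past the threshold in either cell type (background 0.0%, 0 unadjusted and 0 by DESeq2 in both), with medians of -0.76 in microglia and -0.21 in astrocytes. Without APP-vehicle mouse 1 the direction in astrocytes turned, with all genes positive, from 0.12 (mt-Rnr2) to 1.38 (mt-Nd6). APP-vehicle mouse 3 was then the only APP-vehicle library of that fit. In microglia the genes then ran from -0.71 (mt-Nd5) to 0.96 (mt-Nd6).

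The regions of one brain were compared in the 8 mice with both libraries for each cell type, with the mouse as a block. In microglia the summed share was lower in the hippocampus in 7 of 8 mice, the exception being APP-vehicle mouse 1. Of the 9 genes, mt-Cytb passed, against 0.307% of all genes (6 of 9 unadjusted, 0 by DESeq2). It ran from 678 to 7072 CPM in hippocampus microglia with a median of 1178, and from 1231 to 5878 CPM in the cortex with a median of 1790, and was lower in the hippocampus in 7 of 8 mice. Both ranges overlap, and the difference lies within mice. The log2 difference was -0.55 ± 0.13 (SE) at an adjusted p of 0.0213 by edgeR. Next were mt-Nd1 at -0.52 (adjusted p = 0.105, edgeR) and mt-Nd6 at -0.60 (adjusted p = 0.432, edgeR), while both rRNAs lay at -0.01 and 0.05. Without the block 0 genes passed. The call for mt-Cytb was also lost without APP-PMX205 mouse 1, 2 or 3 or WT-vehicle mouse 4 (adjusted p of 0.0618 to 0.151 by edgeR), with a minimum of 1000 UMIs (0.124), with at least 50 cells per library (-0.27, adjusted p = 0.897) and with the mice of contradicting labels left out (0.169), and the direction stayed negative in each.

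In astrocytes the share was lower in the hippocampus in 3 of 8 mice. There mt-Co1 passed, against 2.89% of all genes (4 of 9 unadjusted, 0 by DESeq2), with 0 to 1592 CPM in the hippocampus (median 157) and 162 to 2164 CPM in the cortex (median 490). It was lower in the hippocampus in 6 of 8 mice, and the log2 difference was -0.86 ± 0.25 (SE) at an adjusted p of 0.0223 by edgeR. The next lowest, mt-Nd6 at -0.89 ± 0.28, had an adjusted p of 0.0545 by edgeR and passed with the 5% limit. Of the others, 7 had a positive log2 difference, up to 0.74 ± 0.35 for mt-Rnr1, and none passed. Without the block 0 genes passed here either. The call for mt-Co1 was also lost without APP-vehicle mouse 3 or WT-vehicle mouse 3 or 4 (adjusted p of 0.130 to 0.222 by edgeR), with the mice of contradicting labels left out (0.351), with Scrublet doublets left out (0.0890) and with all deposited barcodes (-0.40, adjusted p = 0.326), and with a minimum of 1000 UMIs none of the 6 genes tested passed.

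Within a library, the summed share of the 9 genes was not always larger in the same cell type. In the 18 libraries with both, from 11 mice, microglia had the larger share in 10. The microglial share over the astrocyte share ran from 0.402 (hippocampus, APP-PMX205 mouse 3) to 1.79 (cortex, WT-vehicle mouse 4). Both libraries of 7 of these mice were counted, so that the n of this test is of libraries and is above the number of mice. By edgeR with the library as a block, 1 gene passed, mt-Rnr2, where 60.4% of all genes did (28.4% higher and 32.0% lower in microglia; 2 of the 9 unadjusted, 3 by DESeq2). It ran from 222 to 2513 CPM in microglia with a median of 339 and from 0 to 1396 CPM in astrocytes with a median of 228, higher in microglia in 16 of 18 libraries. Its log2 difference was 0.68 ± 0.20 (SE) at an adjusted p of 0.00232. The other positive value was mt-Nd1, at 0.39 ± 0.18 (adjusted p = 0.0582 by edgeR), also higher in 16 of 18 libraries, and it passed in 10 of the 11 fits that leave out 1 of these mice, with the 5% limit and with the nuclear library size. The remaining 7 lay between -0.43 and -0.14 with SEs of 0.17 to 0.28, and none passed by edgeR. Without APP-vehicle mouse 1 these 7 lay between -0.01 (mt-Co1) and 0.29 (mt-Nd4), with all but mt-Co1 positive, and mt-Nd1 was at 0.80. With WT-vehicle mouse 1 also left out the 7 lay between -0.36 (mt-Co1) and -0.01 (mt-Nd4), so their direction depends on the mice included. By DESeq2 mt-Rnr2, mt-Nd1 (0.43, adjusted p = 0.0227) and mt-Co1 (-0.36, adjusted p = 0.0363) passed. With the libraries of a mouse summed and the 11 mice as the block, the same 3 genes passed by edgeR, against 56.4% of all genes, with mt-Rnr2 at 0.77 (adjusted p = 0.000252), mt-Nd1 at 0.52 (0.00444) and mt-Co1 at -0.43 (0.0414).

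Nuclear genes of the same complexes differed between the cell types. Of 75 listed nuclear subunits of the respiratory chain 67 were tested, and 57 (85.1%) were lower in microglia and 0 higher, where 32.0% of all genes were lower. Their median log2 difference was -1.17, a 2.25-fold higher level in astrocytes, beside -0.20 for the 9 mitochondrial genes and -0.04 for all genes. Over the 11 mice with their libraries summed, 57 of 68 were lower and 0 higher, at a median of -1.09 beside -0.06 for the 9 mitochondrial genes. Without APP-vehicle mouse 1, the 9 lay between -0.01 (mt-Co1) and 1.12 (mt-Rnr2), with all but mt-Co1 positive. Counts by complex were 26 of 33 lower in complex I, 3 of 4 in complex II, 8 of 8 in complex III, 9 of 10 in complex IV and 11 of 12 in complex V, the ATP synthase. Among the most abundant, the ATP synthase genes Atp5b, Atp5a1 and Atp5g3 had log2 differences of -1.46 ± 0.18, -0.84 ± 0.19 and -2.32 ± 0.21 (SE), and Cox6b1 of complex IV had -1.28 ± 0.19, all past the threshold. The 3 further mitochondrial genes that could be tested, mt-Co3, mt-Atp6 and mt-Atp8, lay at -0.33, -0.12 and -0.24, and none passed.

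**Figure D5:**
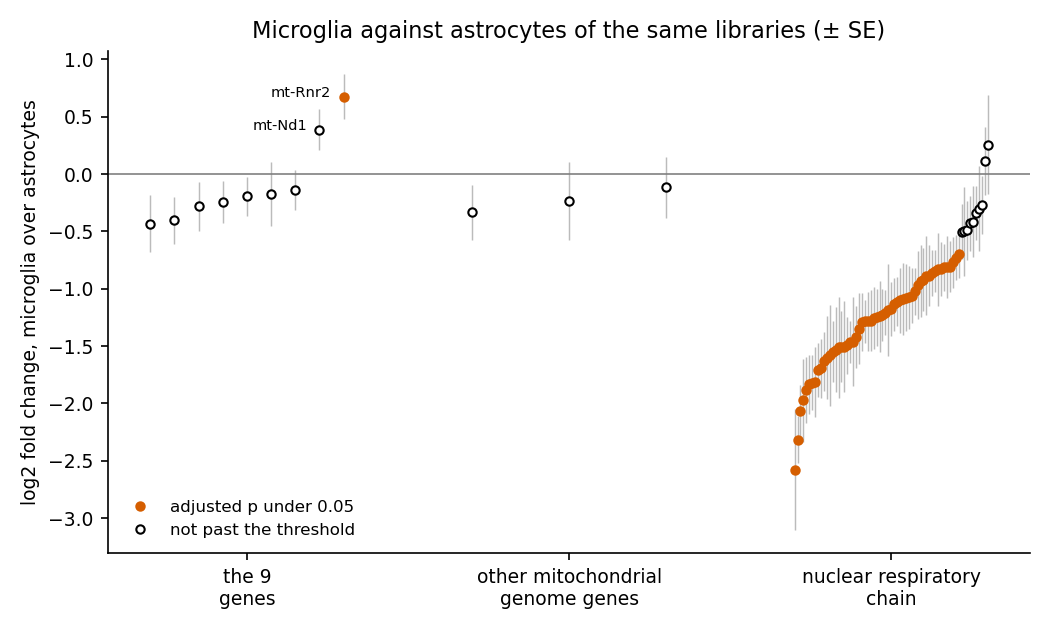
Log2 difference between microglia and astrocytes of the same library (y axis), 1 point with its SE for each gene, for the 9 genes, other genes of the mitochondrial genome and nuclear genes of the respiratory chain (x axis, ordered by size within each set). Filled points passed the adjusted threshold. The mitochondrial genes lie between -0.43 and 0.68, and the nuclear genes have a median of -1.17.

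Few genes that serve mitochondrial RNA were abundant enough to test between the types. Of 23 listed, 4 were tested and 1 was lower in microglia, Fastk at -1.42, while 3 did not pass, a share no higher than the 32.0% of all genes that were lower. Of 7 mitochondrial chaperones and proteases of the stress response, 4 were tested and 2 were lower, the chaperone Hspa9 at -0.75 and the protease Clpp at -1.52. Both RNAs kept in the nucleus, Malat1 at -0.76 and Neat1 at -1.71, were lower in microglia. In the comparisons of genotype, PMX205 and region, where 37 to 66 of the 75 nuclear subunits were tested, 0 passed. Of the 1 to 3 further mitochondrial genes tested there, 0 passed.

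In the remaining cell types the share of UMIs from the 9 genes, over libraries with at least 20 such cells, had a median of 0.527% in 3 endothelial libraries and 0.324% in 4 mural libraries, and was 0.952% in the only ependymal library, beside the 0.695% of microglia and 0.689% of astrocytes. Barcodes that met no marker rule had a median of 0.938% over 25 libraries, at a median depth of 767 UMIs. These types were not tested against each other, since cells of one library share its level.

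The nuclear genes whose level across the 22 microglia libraries was most like the summed 9 were Slc1a2 (Spearman's rho 0.846), Atp5c1 (0.822), Myo3a (0.807), Actb (0.797) and Malat1 (0.775), of 1976 genes with a mean of at least 100 CPM. Slc1a2 encodes a glutamate transporter of astrocytes and is one of the astrocyte markers used to separate the types, and its microglial level ran from 58.3 to 1397 CPM. Atp5c1, a nuclear subunit of the ATP synthase, ran from 100.3 to 352 CPM. These values describe libraries that differ in depth and in the other cells' RNA they hold, and carry no test.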

How the data were processed

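The libraries were made with the SureCell 3′ kit on the ddSEQ system and converted with bcl2fastq 2.18.0.12. The authors counted UMIs with kb_python (kallisto bustools, SureCell setting) on mm10 with GENCODE annotation and deposited raw counts for barcodes with at least 300 UMIs. The study's methods write that annotation as v21, and all symbols match M21. The stated options of kb count set neither the strand nor the treatment of reads that fit several genes, and the tool's version and defaults are not given in the sources used here. The authors' own limits were 500 UMIs, 300 genes, 5% mitochondrial UMIs and Scrublet.

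Here barcodes with at least 500 UMIs and 300 genes were kept with no mitochondrial limit. A barcode was assigned to a cell type when it had at least 5 UMIs from at least 3 of the type's markers and the type's level, relative to all passing barcodes, was at least 2 times the next, which leaves out barcodes with markers of 2 types. The level for that choice, the 9 genes and all gene lists were set with earlier results of these data known. UMIs were summed per library and type where at least 20 cells were present. edgeR 4.0.16 in R 4.3.3 (filterByExpr, TMM, quasi-likelihood) fitted all groups of a region together, and genes past an adjusted p of 0.05 were called. Regions were compared with the mouse, and cell types with the library, as a block. Both regions of a mouse come from the same animal by the labels, and the correlation of their deviations from the group means was at least 0.0689 in every mouse, with medians of 0.152 in microglia and 0.154 in astrocytes against -0.029 and -0.032 between mice. CPM values are over all UMIs of the same cells, without TMM. All 9 genes were named in every comparison, other lists by counts with at most 5 examples of highest mean CPM, and the 5 nuclear genes most like the 9 by Spearman's rho.

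DESeq2 1.42.0, other limits on UMIs, cells and marker UMIs, removal of the highest 6% of Scrublet scores (scanpy 1.11.5), another library size and leaving out each mouse were alternatives. Barcode classes were cleaned by leaving out the recurring family and merging first-base pairs. A batch term for the 4 mice with many such pairs, leaving out WT-vehicle mouse 1 and APP-vehicle mouse 1 together, and summing the libraries of a mouse for the cell types, were added after the data were seen. The fits were tested on simulated counts. Unique words are 31-mers of the annotated transcripts. Python 3.11.15 with NumPy 2.4.6, pandas 2.3.3, SciPy 1.17.1 and matplotlib 3.10.9 was used for tables and figures. P-values measure the spread between mice, except that between cell types they measure the spread between 18 libraries of 11 mice, and intervals are 95% Wilson intervals.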

Additional observations from a re-analysis of the deposited data

Results flagged for a closer look

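In 4 sets of 4 or 5 libraries of one group, region and cell type, the levels of the 9 genes and their summed share were each tested, 40 tests in all, and in 6 a library's gap to the nearest of the others passed Dixon's 95% critical value. Chance gives about 1 in 20 for a single test, but these 40 are not independent, since they reuse the same libraries and the genes move together, so that the 6 cannot be read against it. The 9 genes were also chosen by a joint rise in some microglia of the same data. The libraries were of 2 mice. WT-vehicle mouse 1 was the highest library 4 times. Its cortex microglia had 290 CPM of mt-Rnr1 against 66.2 to 125 CPM in the other WT-vehicle mice, and 820 CPM of mt-Nd6 against 179 to 354 CPM. Its hippocampus astrocytes had 1188 CPM of mt-Rnr2 against 182 to 244 CPM, and 2782 CPM of mt-Nd2 against 660 to 999 CPM. APP-vehicle mouse 1 was the highest library in cortex microglia for mt-Rnr2, at 1827 CPM against 293 to 367 CPM in the other APP-vehicle mice, and for mt-Nd4, at 4661 CPM against 1260 to 1628 CPM. Groups of 2 or 3 libraries, among them APP-vehicle microglia of the hippocampus, were not tested in this way.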

How the results depend on the processing

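The number of the 9 genes past the threshold is given here by comparison. For APP-PMX205 against APP-vehicle, it was 2 in cortex microglia with the mice of contradicting labels left out, and in hippocampus microglia it was 8 with a minimum of 1000 UMIs and 8 with no filter on low counts, against 0 as reported. In cortex astrocytes it was 0 with the 5% limit, all deposited barcodes, Scrublet doublets left out, DESeq2, barcode classes cleaned, regions summed and first-base mice as a batch, against 1. For microglia between regions it was 0 with 1000 UMIs, all deposited barcodes, at least 50 cells, DESeq2, contradicting labels left out and no replicate block, and 2 with no filter, cleaned barcode classes and both vehicle mice 1 left out, against 1. For astrocytes between regions it was 0 with 1000 UMIs, Scrublet doublets left out, DESeq2, contradicting labels left out and no replicate block, and 2 with the 5% limit and with no filter, against 1. For microglia against astrocytes it was 2 with the 5% limit, 1000 UMIs, Scrublet doublets left out, no filter, nuclear library size, cleaned barcode classes and both vehicle mice 1 left out, 3 with all deposited barcodes, at least 50 cells, DESeq2 and libraries summed per mouse, and 0 with no replicate block, against 1. Leaving out each mouse gave 0 to 8 and 0 to 3 for APP-vehicle against WT-vehicle in microglia and astrocytes of the hippocampus. For APP-PMX205 against APP-vehicle it gave 0 to 1 in cortex and 0 to 9 in hippocampus microglia, and 0 to 4 in cortex and 0 to 5 in hippocampus astrocytes. Between regions it gave 0 to 2 in both cell types, and between cell types 1 to 2. The causes were not tested. All 9 genes of the 4 genotype comparisons turned or shrank without APP-vehicle mouse 1 as described above, and 0 passed.

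Over all genes, the number past the threshold between the cell types was 2684, and 4145 with no filter and 1069 with no replicate block. Between regions it was 11 in microglia, and 0 to 27 over the alternatives, and 59 in astrocytes, and 6 to 92. In the other comparisons 0 to 4 genes passed as reported and at most 24 under any alternative.

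The comparisons that need WT-PMX205 in the hippocampus could not be fitted, since no library had 20 cells of either type. With 2 to 5 libraries per group, and as few as 0 UMIs of mt-Co1 in a library's astrocytes and 2 in a library's microglia, differences of the size seen between APP-vehicle mice could not be separated from spread between mice. Requiring 10 marker UMIs changed no microglia or astrocyte, so it could not bear on a count.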

Other observations

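Among the tRNA genes of the mitochondrial genome mt-Te, the glutamate tRNA, had 500 UMIs over all barcodes, and no other tRNA gene had more than 18 (mt-Ti and mt-Tq). It lies at chrM:14071-14139 on the minus strand, directly beside mt-Nd6 (chrM:13552-14070), which is on the same strand and had 4571 UMIs. On the other side of it lies mt-Cytb (chrM:14145-15288), the gene with the most UMIs of the mitochondrial genome at 29993, on the plus strand. Which of these transcripts the mt-Te UMIs came from was not tested, since the stated counting options set no strand.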
